A study of Mus musculus with 22 samples.

Results

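Fast excitation in the cerebral cortex is carried by glutamate. Vesicular transporters load it into synaptic vesicles, ionotropic receptors of the AMPA, NMDA and kainate classes open cation channels when they bind it, and metabotropic receptors act through G proteins. Scaffold proteins of the postsynaptic density hold the receptors opposite the release site, auxiliary subunits set their gating and traffic, and neuronal uptake carriers remove the transmitter. The genes described here are 37 members of that apparatus, chosen by symbol from the deposited annotation, of 15297 genes in the count table. They are 2 vesicular transporters, 4 AMPA, 6 NMDA and 5 kainate receptor subunits, 6 metabotropic receptors, 3 auxiliary subunits, 10 scaffold genes and 1 neuronal uptake carrier.

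The data are 5'-end read counts from STRT sequencing of primary motor cortex (M1), a method that tags RNA at its 5' end during reverse transcription. BERKO mice (genotype labelled ERb-/-, which lack estrogen receptor beta) were set against wild-type (WT) mice, all male C57BL/6 animals 16 to 20 weeks old with no treatment given in the labels. A right and a left biopsy were taken by needle puncture from each of 5 BERKO and 6 WT mice, 22 biopsies in all, and 10 ng of RNA of each was used. The deposited counts hold no further BERKO mouse. The mouse was the replicate, with both biopsies summed. Levels are in CPM, the reads of a gene relative to all gene reads of the mouse, after TMM scaling. In bulk tissue, fewer cells of a type and less RNA per cell cannot be told apart.

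Gene reads per mouse ranged from 968219 to 1626675 in BERKO (mean 1.34e+06) and from 1353208 to 2722667 in WT mice (mean 2.08e+06). Depth was thus lower on average in BERKO mice. Across all mice, 3 reads corresponded to 1.10 to 3.10 CPM before TMM scaling. Esr2, the gene that encodes estrogen receptor beta, had 0, 6, 0, 4 and 0 reads in BERKO mice 2 to 6 and at most 3 reads in any WT mouse, so the genotype labels could not be checked from it. Of 10 markers of cortical excitatory neurons, 7 had reads in every mouse. Both biopsies of WT mouse 1 and the left biopsy of WT mouse 2 stood apart on the first principal component, at -57.7 to -41.6 against -12.2 or more for the other 19 biopsies. In these 3 biopsies the summed level of cortical excitatory markers was 1024 to 1379.6 CPM, against 1347 to 3624 CPM in the other 19, and that of 8 hypothalamic markers was 301 to 472 CPM, against 25.6 to 200 CPM. Nearly all of the hypothalamic sum was Hap1 (280 to 459 CPM), while Agrp, Avp and Ghrh had 0 reads in every mouse. The column names carry a letter code, A for right and B or C for left biopsies of WT mice, and D for right and E or F for left biopsies of BERKO mice. What the code stands for is not given in the labels, and genotype and side cannot be told apart from it. The left biopsy of BERKO mouse 5 had 1 lane and 249379 endogenous reads, where every other biopsy had 3 lanes, and 3 reads were 12.5 CPM in it, against 1.58 to 6.42 CPM in the others.

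All 37 members had at least 1 feature, a feature being 1 row of the count table with a position (mm9), a strand and a class. Their 523 features held 61349 reads. Of these reads, 51.2% lay in promoter features (28.3% in 5' UTR and 22.9% in upstream features), 19.7% in 3' UTR, 16.4% in coding sequence and 12.8% in introns. In all genes together, gene body features held 21.4 to 25.1% of the reads of a BERKO mouse and 16.9 to 22.2% of the reads of a WT mouse, a difference with an exact two-sided permutation p of 0.013. In the members they held 51.4 to 59.0% in BERKO mice and 44.6 to 47.9% in WT mice, so the groups did not overlap in that share. The part of this shift in the results below was not tested. Transcripts of 8 members (Slc1a1, Homer2, Homer3, Shank1, Shank3, Grm2, Neto1 and Grin2d) match an annotated antisense transcript over at least 200 bases, from 220 in Neto1 to 2636 in Slc1a1. Whether strand was used in counting is not given in the labels, so their values are uncertain to that extent. Grin2a matches Gm7328 over 2225 bases at 99.91% identity and Dlg4 matches Gmeb1 over 200 bases at 96%, and 5 members (Gria2, Gria3, Gria4, Grm8 and Grik4) overlap a small RNA on the same strand, where reads could be shared.

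The reference promoters of 5 members are shown because the 6 member features with the smallest p lay in these genes. Each is 300 bases of RefSeq sequence (GRCm38.p6), 250 before and 50 after the annotated start, in the direction of the gene. Capitals mark the GC box GGGCGG and the nuclear receptor site AGGTCA, on either strand. The deposited positions are on mm9 and were not placed on these sequences. The promoters are, in order, chr7:45163671-45163970 (plus strand), chr17:69968823-69969122 (plus strand, the first of 2 Dlgap1 entries), chr11:70016953-70017252 (plus strand, the first of 3 Dlg4 entries), chr3:80802786-80803085 (minus strand) and chr19:28834885-28835184 (plus strand).
Slc17a7: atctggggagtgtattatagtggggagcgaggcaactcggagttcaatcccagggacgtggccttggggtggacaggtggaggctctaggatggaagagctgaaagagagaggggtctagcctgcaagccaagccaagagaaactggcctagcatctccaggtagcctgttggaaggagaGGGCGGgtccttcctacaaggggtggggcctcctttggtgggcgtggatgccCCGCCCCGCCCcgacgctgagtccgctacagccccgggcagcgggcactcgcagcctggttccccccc
Dlgap1: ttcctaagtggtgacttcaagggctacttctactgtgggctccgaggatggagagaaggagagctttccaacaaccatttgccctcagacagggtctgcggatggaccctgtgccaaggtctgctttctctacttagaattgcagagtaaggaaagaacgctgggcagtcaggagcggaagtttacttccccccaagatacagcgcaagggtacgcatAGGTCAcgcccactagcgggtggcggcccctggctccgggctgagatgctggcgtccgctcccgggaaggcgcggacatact
Dlg4: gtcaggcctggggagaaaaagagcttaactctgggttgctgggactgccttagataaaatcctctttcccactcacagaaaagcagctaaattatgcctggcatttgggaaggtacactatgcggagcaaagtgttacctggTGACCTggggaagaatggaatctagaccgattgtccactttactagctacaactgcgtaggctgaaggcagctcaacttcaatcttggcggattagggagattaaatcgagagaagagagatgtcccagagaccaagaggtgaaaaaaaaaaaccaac
Gria2: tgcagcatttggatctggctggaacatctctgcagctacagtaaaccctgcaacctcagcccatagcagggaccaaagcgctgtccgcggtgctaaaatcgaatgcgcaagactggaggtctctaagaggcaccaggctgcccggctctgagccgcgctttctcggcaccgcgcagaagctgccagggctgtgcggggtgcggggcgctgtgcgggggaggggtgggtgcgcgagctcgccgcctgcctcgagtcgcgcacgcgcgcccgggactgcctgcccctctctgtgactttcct
Slc1a1: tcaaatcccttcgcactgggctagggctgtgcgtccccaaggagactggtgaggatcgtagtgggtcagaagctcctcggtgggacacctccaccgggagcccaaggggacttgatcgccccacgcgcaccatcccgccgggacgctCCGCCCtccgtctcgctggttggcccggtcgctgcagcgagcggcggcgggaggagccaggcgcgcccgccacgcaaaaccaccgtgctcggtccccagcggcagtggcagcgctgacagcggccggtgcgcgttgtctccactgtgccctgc

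The Slc17a7 promoter holds 3 GC boxes and the Slc1a1 promoter 1, the Dlgap1 and Dlg4 promoters shown hold 1 nuclear receptor site each, and the Gria2 promoter holds neither motif. Of the Dlg4 entries not shown, the second holds neither motif and the third holds 2 GC boxes and no nuclear receptor site. The second Dlgap1 entry also holds 1 nuclear receptor site. Across 35 reference promoters of the 25 members that matched, 19 held a GC box (54.3%), against 35.7% of all 32851 promoters of that length. The nuclear receptor site was found in 7 member promoters (20.0%, against 16.3% of all), TATAAA in 1 (2.86%, against 13.6%) and the cyclic AMP response element TGACGTCA in 0 (against 1.79%). Both strands were searched, and no motif overlapped another kind in the promoters shown. These matches describe the letters only.

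After the filter on low counts, 31 of the 37 members could be tested between genotypes with edgeR's quasi-likelihood test, and 0 passed an adjusted p of 0.05 (Benjamini-Hochberg over 9025 genes, of which 7 passed, 0.0776%). At an unadjusted p under 0.05 there were 8 members, 6 higher and 2 lower in BERKO, against a background of 9.92% of all genes. With DESeq2 1 member passed, with limma-voom 0, and DESeq2 called more of all genes than edgeR did. The median log2 fold change of the tested members was -0.01, as was that of all genes tested, and 15 members had a positive value. The values of BERKO and WT mice separated fully in 0 of the 31 members, against 1.33% of all genes. The 6 members that were not tested had few reads. Grin2c had 0 reads in all mice, a limit of 1.10 CPM for the deepest mouse and 3.10 CPM for the shallowest, at 3 reads. Grin2d (21 reads), Neto2 (20), Homer3 (60), Grm8 (124) and Grin2a (158) had 0 reads in 1 to 9 of the 11 mice.

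**Figure D1:**
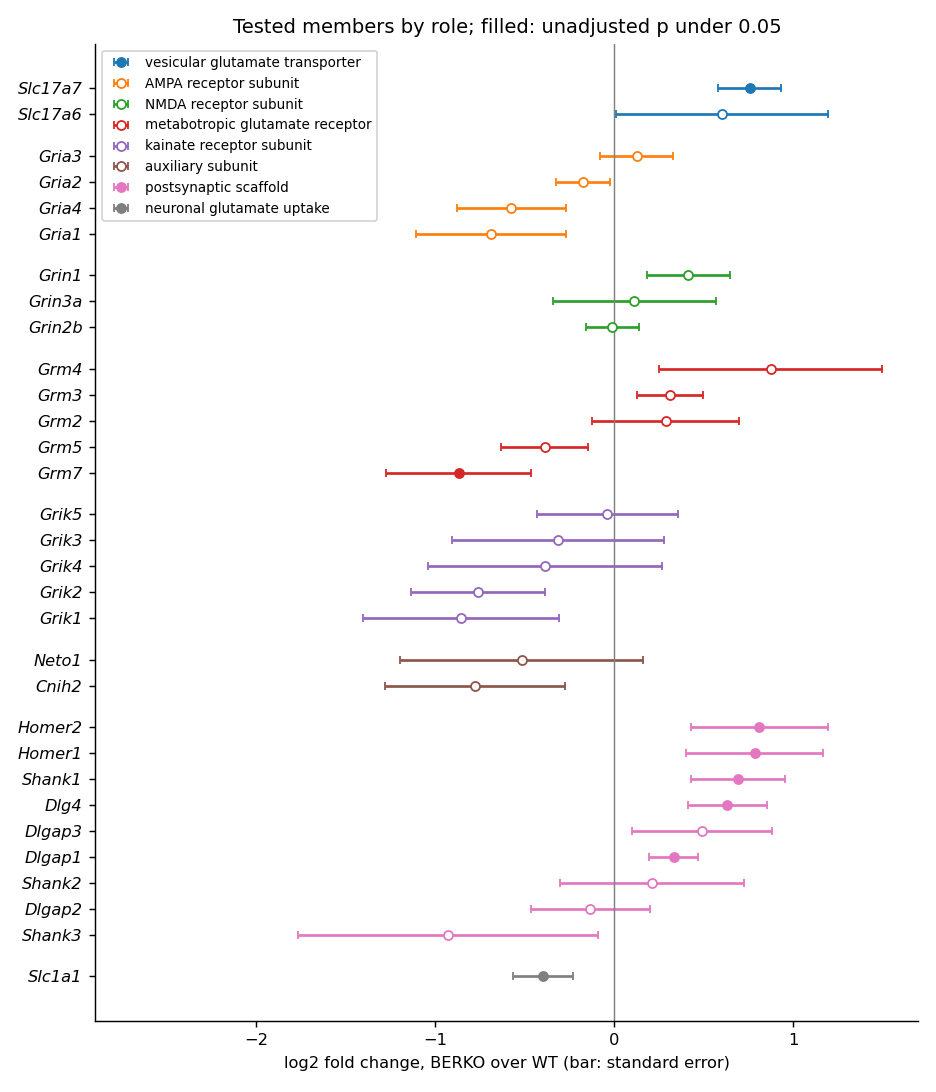
Log2 fold change of the 31 tested members, BERKO over WT, on the x axis, with standard errors as bars and genes grouped by role. Filled symbols mark an unadjusted p under 0.05. The 5 kainate subunits lie below 0, and 7 of 9 scaffold genes lie above it.

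Slc17a7 encodes VGLUT1, the vesicular glutamate transporter of most cortical excitatory neurons, and had the smallest p of the members. Its level was 170, 206, 179, 201 and 122 CPM in BERKO mice 2 to 6, while the WT mice had a lowest level of 80.4, a median of 107 and a highest of 129 CPM. In 4 of 5 BERKO mice it exceeded the highest WT mouse, and BERKO mouse 6 fell within the WT range. The log2 fold change was 0.76 ± 0.18 (SE), with an adjusted p of 0.127 by edgeR. It passed the threshold with DESeq2 (adjusted p = 0.016) and with scaling to the spike-in RNA (0.96 ± 0.22, adjusted p = 0.0392). Both settings also called more of all genes than the main fit did, as counted in the closing section. Scaling to the spike-in RNA moves all genes of a mouse by a shared factor, so the higher value with it is not particular to Slc17a7. Over 20 settings the log2 fold change of Slc17a7 was 0.65 to 0.96 and its adjusted p 0.016 to 0.28. Without the 3 biopsies that stood apart it was 0.65 ± 0.18 (adjusted p = 0.241).

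Slc17a6 encodes VGLUT2, the transporter typical of thalamic and other subcortical projections. Its level was 63.9, 29.95, 94.9, 43.1 and 51.4 CPM in BERKO mice, and 2.47, 37.6 and 75.8 CPM as the lowest, median and highest of the WT mice. The lowest value was that of WT mouse 1, and the groups overlapped. The log2 fold change was 0.60 ± 0.59 (adjusted p = 0.782), and 0.36 ± 0.31 without the 3 biopsies that stood apart.

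Of the AMPA receptor subunits, which form the main fast glutamate channels, 1 of 4 had a positive and 3 a negative value, and 0 passed. Gria1, encoding the subunit GluA1, had 156, 213, 172, 279 and 241 CPM in BERKO mice, against a lowest of 197, a median of 231 and a highest of 859 CPM in WT mice. The highest was WT mouse 1, and the next highest WT mouse had 302 CPM. The log2 fold change was -0.69 ± 0.42 (adjusted p = 0.606), and -0.04 ± 0.16 without the 3 biopsies that stood apart.

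Gria2 encodes GluA2, the subunit that makes AMPA receptors impermeable to calcium. It had 306, 381, 384, 426 and 350 CPM in BERKO mice, against 327, 387 and 622 CPM as the lowest, median and highest in WT mice, where WT mouse 1 was again the highest. Its log2 fold change was -0.17 ± 0.15 (adjusted p = 0.743) and 0.02 ± 0.14 without the 3 biopsies, so its sign rests on them. Gria4 had 40.3, 32.8, 36.7, 30.5 and 20.0 CPM in BERKO mice and 25.4, 43.9 and 80.4 CPM in WT mice. All 5 BERKO mice were below the WT median (-0.57 ± 0.30, adjusted p = 0.53). The Gria4 value was -0.35 without WT mouse 3 and -0.71 ± 0.30 without the 3 biopsies that stood apart (adjusted p = 0.566). It was -0.98 ± 0.37 in right biopsies alone and 0.06 ± 0.45 in left biopsies alone. Gria3, on chromosome X, averaged 107 ± 25.4 CPM in BERKO and 97.8 ± 24.4 CPM in WT mice (SD, n = 5 and 6), with a log2 fold change of 0.13 ± 0.20, and 0.05 ± 0.20 without the 3 biopsies.

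Of 6 NMDA receptor subunits, 3 were tested and 0 passed. Grin1 encodes the obligatory subunit GluN1. It had 76.9, 87.7, 155, 62.0 and 83.3 CPM in BERKO mice, and 49.8, 67.8 and 95.6 CPM as the lowest, median and highest in WT mice. The high value was 1 mouse, BERKO 4. The log2 fold change was 0.41 ± 0.23 (adjusted p = 0.551) with that mouse and 0.16 without it.

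Grin2b encodes GluN2B, a subunit that binds glutamate and was the member with the most reads (12591). It averaged 641 ± 162 CPM in BERKO and 645 ± 86.8 CPM in WT mice (-0.01 ± 0.15, adjusted p = 0.99), and its log2 fold change was 0.10 ± 0.14 without the 3 biopsies that stood apart. Individual BERKO mice lay between 486 and 868 CPM and WT mice between 548 and 795 CPM. Grin3a, encoding a glycine-binding subunit, averaged 18.5 ± 6.75 CPM in BERKO and 17.1 ± 10.3 CPM in WT mice. Its log2 fold change was 0.11 ± 0.46, and 0.68 ± 0.49 without the 3 biopsies. Grin2a, which encodes the subunit GluN2A, had 7.61 and 9.19 CPM in 2 BERKO mice and 0 in the other 3, and at most 36.2 CPM in a WT mouse. None of its reads lay in a promoter feature. Grin2d reached 7.61 CPM in BERKO and 0.543 CPM in WT mice.

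Of 6 metabotropic receptors, 5 were tested and 0 passed. Grm7, encoding a presynaptic receptor coupled to inhibitory G proteins, had 36.5, 21.4, 17.6, 5.25 and 14.4 CPM in BERKO mice, against 16.8, 27.0 and 75.2 CPM in WT mice. In 4 of 5 BERKO mice it was below the WT median, but the ranges overlapped and the highest WT mouse was mouse 3. Its log2 fold change was -0.87 ± 0.41 (adjusted p = 0.482), -0.48 without WT mouse 3 and -1.23 without BERKO mouse 2.

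Grm3, a receptor also found on astrocytes, had 183, 178, 201, 162 and 187 CPM in BERKO mice, against 76.3, 166 and 187 CPM in WT mice, with WT mouse 1 the lowest. The log2 fold change was 0.31 ± 0.19 (adjusted p = 0.582) and 0.12 ± 0.16 without the 3 biopsies that stood apart. Grm5, the postsynaptic receptor that couples to phospholipase C and binds Homer proteins, averaged 83.1 ± 26.2 CPM in BERKO and 108 ± 39.4 CPM in WT mice (-0.39 ± 0.24). It was -0.04 ± 0.23 without the 3 biopsies. Grm2 (0.29 ± 0.41) and Grm4 (0.87 ± 0.62), both coupled to inhibitory G proteins, had adjusted p of 0.868 and 0.652. Without the 3 biopsies Grm2 was -0.02 ± 0.27, with the sign turned, and Grm4 was 0.50 ± 0.58. Grm2 ranged from 29.4 to 60.6 CPM in BERKO and from 4.59 to 58.3 CPM in WT mice, Grm4 from 3.13 to 22.2 CPM in BERKO and from 0.706 to 9.78 CPM in WT mice, and Grm8 from 0 to 17.6 CPM in BERKO and from 0.778 to 20.7 CPM in WT mice.

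All 5 kainate receptor subunits had negative values, from -0.86 (Grik1) to -0.04 (Grik5), with a median of -0.39, and 0 passed. Grik2, encoding the main forebrain subunit GluK2, had 16.7, 12.1, 6.12, 35.7 and 27.6 CPM in BERKO mice, against 21.7, 30.8 and 55.5 CPM in WT mice. Of the BERKO mice, 3 lay below the lowest WT mouse, and the highest WT value was WT mouse 1 (-0.76 ± 0.38, adjusted p = 0.507). Without the 3 biopsies that stood apart Grik1 was -0.34 ± 0.57 and Grik2 -0.33 ± 0.41, and 3 of the 5 subunits had negative values, Grik4 and Grik5 being 0.21 ± 0.67 and 0.11 ± 0.42. Grik1 ranged from 7.35 to 14.5 CPM in BERKO and from 1.09 to 46.6 CPM in WT mice, Grik3 from 3.15 to 20.6 CPM in BERKO and from 3.11 to 18.4 CPM in WT mice, Grik4 from 0 to 23.6 CPM in BERKO and from 3.11 to 32.1 CPM in WT mice, and Grik5 from 12.9 to 38.9 CPM in BERKO and from 9.86 to 34.6 CPM in WT mice. Of the auxiliary subunits, Cnih2, an AMPA receptor cornichon, was -0.78 ± 0.50, and the kainate receptor partner Neto1 was -0.52 ± 0.68 (adjusted p = 0.611 and 0.85). Cnih2 ranged from 1.0503 to 37.1 CPM in BERKO and from 15.1 to 47.0 CPM in WT mice, and Neto1 from 2.28 to 8.14 CPM in BERKO and from 3.11 to 18.97 CPM in WT mice. Neto2 reached 10.5 CPM in BERKO mice, where 2 mice had reads, and had 0 reads in WT mice.

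The scaffold genes held 5 of the 8 members with an unadjusted p under 0.05, all of them higher in BERKO, against 5.27% of all genes at that p and higher in BERKO, and 0 of the 9 tested passed the adjusted threshold. Their median log2 fold change was 0.49. Without the 3 biopsies that stood apart it was 0.47, with 8 genes tested and 7 positive. In that fit 3 scaffold genes were at an unadjusted p under 0.05. Dlgap1 (0.25 ± 0.13, adjusted p = 0.683) and Homer1 (0.71 ± 0.39, adjusted p = 0.694) were no longer among them. Dlg4 encodes PSD-95, which binds NMDA receptors and AMPA receptor auxiliary subunits. It had 60.9, 102, 84.2, 113 and 105 CPM in BERKO mice, against 33.0, 64.7 and 72.2 CPM in WT mice, and 4 of 5 BERKO mice exceeded every WT mouse. The log2 fold change was 0.63 ± 0.22 (adjusted p = 0.33) and ran from 0.51 to 0.82 over the alternatives.

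Shank1 encodes a scaffold that links the PSD-95 complex to Homer and actin. It had 49.5, 50.6, 55.9, 91.4 and 62.0 CPM in BERKO mice, against 23.8, 36.7 and 61.4 CPM in WT mice. All 5 BERKO mice were above the WT median and 2 exceeded every WT mouse (0.69 ± 0.26, adjusted p = 0.374). Dlgap1 encodes a protein that joins PSD-95 to Shank. It had 444, 469, 469, 526 and 403 CPM in BERKO mice, against 291, 369 and 430 CPM in WT mice, and 4 of 5 BERKO mice exceeded every WT mouse (0.33 ± 0.14, adjusted p = 0.425).

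Homer1 and Homer2 encode adaptors that bind Shank and group I metabotropic receptors. Homer1 had 19.8, 37.8, 42.9, 35.7 and 8.77 CPM in BERKO mice, against 8.11, 17.0 and 21.8 CPM in WT mice. Of the BERKO mice, 3 exceeded every WT mouse and BERKO mouse 6 was near the lowest of them (0.78 ± 0.38, adjusted p = 0.503). Homer2 had 25.9, 20.0, 98.0, 43.1 and 13.8 CPM in BERKO mice, against 17.0, 22.0 and 29.6 CPM in WT mice. That difference rested on BERKO mouse 4, as the log2 fold change was 0.81 ± 0.38 (adjusted p = 0.494) with it and 0.16 without it. Of the other scaffold genes, Dlgap3 was 0.49 ± 0.39, Shank2 0.21 ± 0.52, Dlgap2 -0.13 ± 0.33 (-0.21 ± 0.31 without the 3 biopsies) and Shank3 -0.93 ± 0.84. Dlgap3 ranged from 38.5 to 124 CPM in BERKO and from 26.1 to 104 CPM in WT mice, Dlgap2 from 39.6 to 58.8 CPM in BERKO and from 22.6 to 133 CPM in WT mice, Shank2 from 6.42 to 18.3 CPM in BERKO and from 3.26 to 13.1 CPM in WT mice, Shank3 from 0 to 6.85 CPM in BERKO and from 0 to 13.8 CPM in WT mice, and Homer3 from 0 to 6.09 CPM in BERKO and from 0 to 11.7 CPM in WT mice.

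Slc1a1 encodes the neuronal glutamate carrier EAAC1. It had 161, 225, 131, 130 and 177 CPM in BERKO mice, against 167, 211 and 276 CPM in WT mice. Of the BERKO mice, 3 lay below the lowest WT mouse and BERKO mouse 3 lay above the WT median (-0.40 ± 0.17, adjusted p = 0.429). Of its reads, 91.0% lay in 1 upstream feature.

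**Figure D2:**
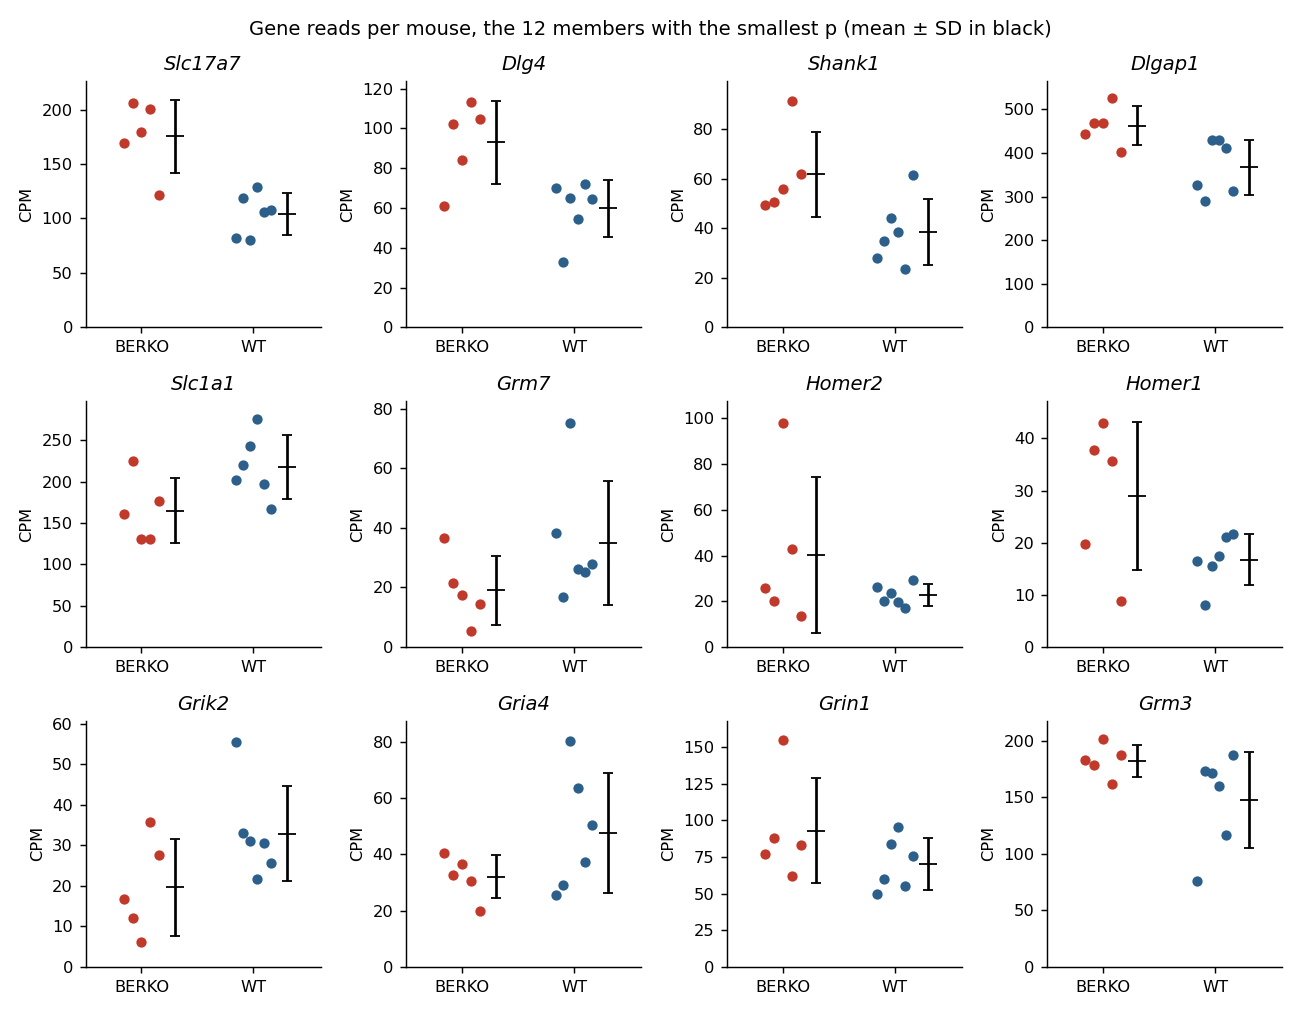
Level of the 12 members with the smallest p in each mouse (y axis, CPM of gene reads after TMM scaling, linear and starting at 0), with BERKO (5 mice) left of WT (6 mice) and the mean ± SD in black. Slc17a7, Dlg4 and Dlgap1 show 4 BERKO mice above every WT mouse, and Homer2 and Grin1 show a single high BERKO mouse.

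Summed levels of marker genes are given here beside the members. Cortical excitatory neuron markers summed to 2151 to 3278 CPM in BERKO and 1041 to 2794 CPM in WT mice, with 7 of 8 tested markers positive. Astrocyte markers summed to 2043 to 2921 CPM in BERKO and 1727 to 2549.6 CPM in WT mice, with 9 of 9 positive and 3 at an unadjusted p under 0.05. Microglial markers summed to 1126 to 1398 CPM in BERKO and 645 to 1106 CPM in WT mice, with 8 of 9 positive. Oligodendrocyte markers were positive in 9 of 9 (5768 to 14943 CPM in BERKO, 2196 to 12485 CPM in WT mice) and endothelial markers in 5 of 6 (235 to 334 CPM in BERKO, 119 to 275 CPM in WT mice). Interneuron markers were positive in 2 of 7, with sums of 1706 to 2269 CPM in BERKO and 1398 to 2051 CPM in WT mice. Sums for oligodendrocyte precursors (176 to 300 CPM in BERKO, 138 to 276 CPM in WT), striatal neurons (183 to 343 CPM in BERKO, 77.7 to 259 CPM in WT) and thalamic neurons (125 to 260 CPM in BERKO, 133 to 334 CPM in WT) overlapped between genotypes. The WT ranges include the 3 biopsies that stood apart, and no marker fit without them is given here. In these 3, microglial markers summed to 620 to 905 CPM, against 819 to 1399 CPM in the other 19. Oligodendrocyte sums were 1896 to 3210 against 4352 to 20041 CPM, and endothelial sums 61.4 to 181 against 152 to 402 CPM. Astrocyte and interneuron sums lay within the range of the other 19. No marker in the 10 lists passed the adjusted threshold by edgeR. An unadjusted p under 0.05 was reached by 9.92% of all genes tested. Among tested markers it was reached by 4 of 9 microglial and 3 of 9 astrocyte markers, all higher in BERKO. Of 7 interneuron markers it was reached by 3, of which 2 were higher and 1 was lower. It was also reached by 1 of 8 cortical excitatory and 1 of 6 endothelial markers, both higher, and by 1 of 5 precursor markers, which was lower. Their part in the members' values was not tested.

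Reads were then split by class. Promoter reads could be tested for 21 members and gene body reads for 27, each scaled within its class, and 0 members passed in either. At an unadjusted p under 0.05 there were 2 members for promoter reads (background 8.65%) and 5 for gene body reads (background 7.31%). Of all genes, 5 of 6832 (0.0732%) passed for promoter reads and 1 of 4938 (0.0203%) for gene body reads.

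Slc17a7 had 2414 reads, of which only 11 lay in promoter features (0.456%). Of its reads, 60.6% came from 1 feature in the 3' UTR at position 52430792 of chromosome 7 (mm9, plus strand). Its gene body log2 fold change was 0.44 ± 0.18 (adjusted p = 0.576) with scaling within gene body reads. With the scaling of all gene reads, an alternative added after the data were seen, it was 0.75 ± 0.21 (adjusted p = 0.135). Its fold change was thus larger with the second scaling.

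Dlg4 promoter reads were 25.1, 22.8, 22.2, 45.2 and 11.9 CPM in BERKO mice, against 5.79, 12.1 and 19.8 CPM in WT mice. In 4 of 5 BERKO mice they exceeded every WT mouse (1.12 ± 0.39, adjusted p = 0.366, in promoter reads). Promoter features held 23.0% of the Dlg4 reads, and its gene body reads gave 0.19 ± 0.27 (adjusted p = 0.951). Of the other scaffold genes, Shank1 gave 0.58 ± 0.37, Homer2 0.50 ± 0.44 and Homer1 0.18 ± 0.47 in gene body reads. Gria2 promoter reads were 170, 192, 188, 215 and 228 CPM in BERKO mice, against 186, 264 and 405 CPM in WT mice (-0.35 ± 0.17, adjusted p = 0.576). All 5 BERKO mice were below the WT median for Gria2, and the 405 CPM was that of WT mouse 1. Without the 3 biopsies that stood apart the Gria2 promoter value was -0.17 ± 0.16. The groups separated fully for promoter reads in 0 members (background 1.29%).

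Dlgap1 gene body reads were 213, 282, 312, 274 and 210 CPM in BERKO mice, against 124, 160 and 203 CPM in WT mice. The groups did not overlap, which held for 1 member in gene body reads against a background of 2.33% of genes. The levels here are relative to all gene reads. Gene body reads of all genes had a larger share of these in BERKO mice (mean 23.3%) than in WT mice (19.8%). With scaling within gene body reads the log2 fold change of Dlgap1 was 0.36 ± 0.17 (adjusted p = 0.681). Grm7 gene body reads were 6.85, 0, 0, 1.0503 and 1.25 CPM in BERKO mice, against 0.778, 6.94 and 44.2 CPM in WT mice. BERKO mice had few or no reads outside the Grm7 promoter. With reads pooled over mice, 90.7% of Grm7 reads lay in it in BERKO mice, against 57.0% in WT mice. The pooled WT share rests largely on WT mice 3 and 1, with 44.2 and 17.0 CPM in the gene body. WT mouse 6 had 0.778 CPM there, and BERKO mouse 2 (6.85 CPM) lay within the WT range. The fitted log2 fold change of Grm7 gene body reads was -3.12 ± 0.94 (adjusted p = 0.351). Leaving out 1 mouse gave -4.73 (without BERKO mouse 2) to -2.78, with adjusted p of 0.216 to 0.64, and with no filter the adjusted p was 0.0307. Slc17a6 gene body reads were 6.85, 4.28, 27.6, 11.6 and 10.0 CPM in BERKO mice, against 1.38, 3.08 and 6.22 CPM in WT mice (1.63 ± 0.71, which did not pass). Cnih2 gene body reads had a value of -1.24 ± 0.55 (adjusted p = 0.664).

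**Figure D3:**
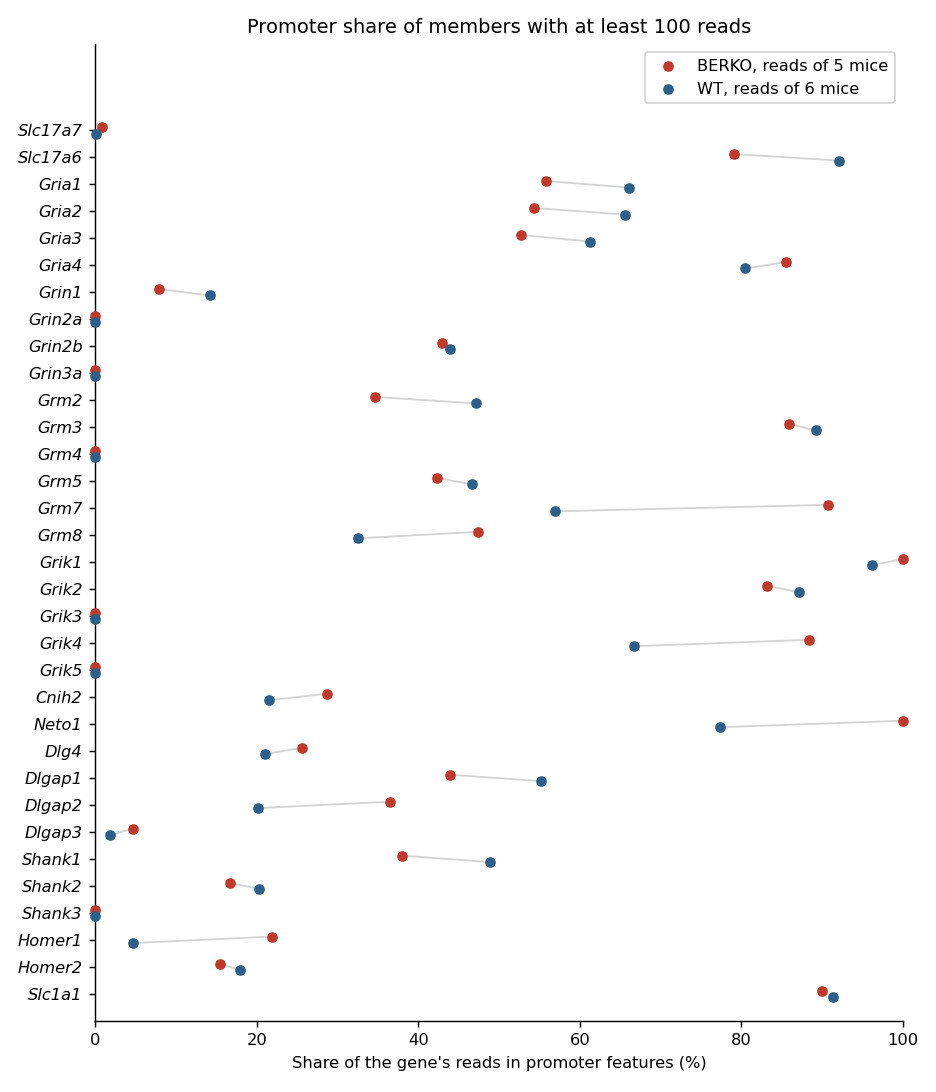
Share of a gene's reads that lay in promoter features (x axis, %, from 0 to 100), from the pooled reads of 5 BERKO (red) and 6 WT (blue) mice, for members with at least 100 reads. Slc17a7 sits near 0, while Grm3 and Slc1a1 lie above 85% in both genotypes and Grm7 is at 90.7% in BERKO and 57.0% in WT. The pooled WT share of Grm7 rests largely on WT mice 3 and 1, which had the highest gene body levels.

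The change of gene body against promoter reads within a gene was tested for 16 members, and 0 of them and 0 of all 2987 genes passed (0%) by edgeR. An unadjusted p under 0.05 was reached by 4 members and 415 genes (13.9%). The value was positive for 11 of 16 members (median 0.31), and for 78.0% of all genes (median 0.42). The members thus leaned the same way as the table as a whole. The 3 members with the smallest p were Grm7 (-2.38 ± 1.04, adjusted p = 0.337), Gria2 (0.67 ± 0.30, adjusted p = 0.346) and Dlgap1 (0.64 ± 0.29, adjusted p = 0.348). The sign for Grm7 was opposite to the median of all genes.

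Of single features, 61 of the 523 were tested, and 0 passed, against 14 of 13128 features in the table (0.107%). At an unadjusted p under 0.05 there were 12 (background 11.6%), 6 higher and 6 lower. The Slc17a7 3' UTR feature had 112, 116, 113, 146 and 94.0 CPM in BERKO mice, against 35.7, 61.1 and 71.8 CPM in WT mice. It was the 1 member feature in which the groups did not overlap, against 1.82% of all features (0.98 ± 0.20, adjusted p = 0.0595). Without WT mouse 4 its adjusted p was 0.0416.

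The Dlgap1 3' UTR feature at position 71168669 of chromosome 17 held 38.4% of that gene's reads. It had 178, 201, 269, 236 and 157 CPM in BERKO mice, against 101, 128 and 173 CPM in WT mice (0.64 ± 0.17, adjusted p = 0.178). The groups overlapped only through BERKO mouse 6. The Dlg4 upstream feature at position 69831945 of chromosome 11 had 23.6, 22.8, 21.4, 37.8 and 11.3 CPM in BERKO mice, against 4.63, 8.12 and 13.6 CPM in WT mice (1.32 ± 0.41, adjusted p = 0.22). Again BERKO mouse 6 alone lay within the WT range.

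Within Gria2, features differed in sign. The 5' UTR feature at position 80606706 of chromosome 3 (minus strand) held 62.2% of its reads and had 170, 192, 188, 215 and 228 CPM in BERKO mice, against 186, 264 and 405 CPM in WT mice (-0.51 ± 0.18, adjusted p = 0.287). These levels are the Gria2 promoter reads given above, so this is not a separate result. Scaling was over all features here, and within promoter reads there (-0.35 ± 0.17, and -0.17 ± 0.16 without the 3 biopsies that stood apart). A coding sequence feature at position 80496303 had 32.7, 42.8, 31.4, 35.7 and 23.8 CPM in BERKO mice, against 10.9, 17.4 and 27.2 CPM in WT mice (0.84 ± 0.32, adjusted p = 0.327). The Slc1a1 upstream feature at position 28909624 of chromosome 19 had 148, 208, 109, 116 and 159 CPM in BERKO mice, against 144, 190 and 258 CPM in WT mice (-0.46 ± 0.18, adjusted p = 0.341). Its sign was that of the gene as a whole.

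**Figure D4:**
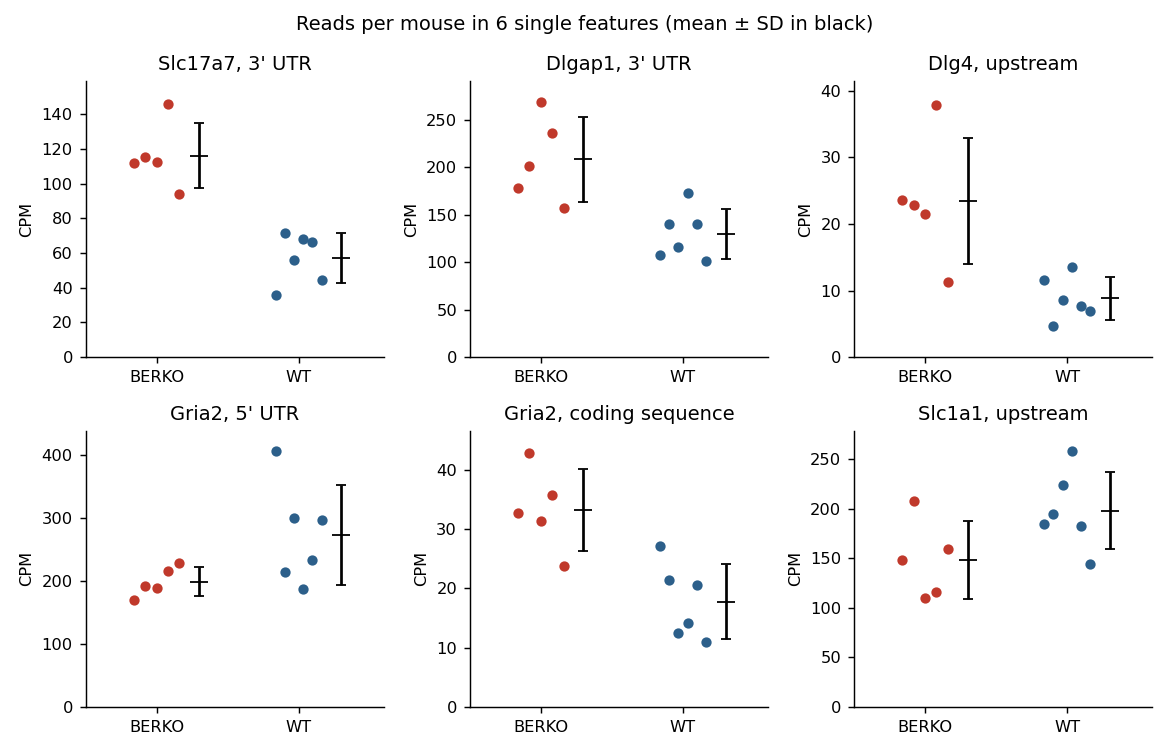
Level of the 6 member features with the smallest p in each mouse (y axis, CPM of gene reads after TMM scaling, starting at 0), BERKO (5 mice) left of WT (6 mice), with the mean ± SD in black. The Slc17a7 3' UTR feature lies between 94.0 and 146 CPM in BERKO mice, above every WT mouse.

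Each side was tested alone. In right biopsies 29 members were tested and 0 passed, against 5 of 7696 genes (0.065%), and 7 had an unadjusted p under 0.05 (background 8.25%). Slc17a7 had the smallest p there (0.91 ± 0.22, adjusted p = 0.152), followed by Dlg4 (0.71 ± 0.24, adjusted p = 0.451). In left biopsies 24 members were tested and 0 passed, as did 0 of 6616 genes (0%), and 4 members and 449 genes (6.79%) had an unadjusted p under 0.05. Slc1a1 had the smallest p on the left (-0.72 ± 0.26, adjusted p = 0.623), and Slc17a7 was 0.47 ± 0.25 there. Whether the genotypes differed more on the right than on the left was tested for 29 members, and 0 of them and 0 of 8308 genes passed (0%). At an unadjusted p under 0.05 there were 1 member and 272 genes (3.27%).

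That member was Shank2 (-4.23 ± 1.36, adjusted p = 0.998). It had 9.70, 1.25, 11.6, 5.53 and 6.40 CPM in right biopsies of BERKO mice and 25.6, 13.0, 6.63, 32.6 and 12.0 CPM in their left biopsies. In WT mice right biopsies had 4.50 to 20.5 CPM and left biopsies 0 to 4.29 CPM. These levels correspond to few reads, and the highest, 32.6 CPM, is that of the biopsy with 1 lane. The next members were Grik1 (-2.40 ± 1.20) and Gria4 (-0.93 ± 0.55), and Slc17a7 was 0.45 ± 0.33, so for it no side difference was detectable.

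Between sides, with the mouse as a block, 23 members were tested and 0 of them and 0 of 6651 genes passed (0%) by edgeR. At an unadjusted p under 0.05 there were 4 members and 400 genes (6.01%). Slc17a6 had the smallest p. Its right biopsies had 33.9, 0, 82.6, 29.0 and 44.8 CPM in BERKO mice and 0.955 to 53.9 CPM in WT mice. Its left biopsies had 89.5, 68.1, 117, 81.6 and 60.2 CPM in BERKO mice and 7.14 to 127 CPM in WT mice. The left biopsy was higher in 10 of 11 mice (right over left -1.26 ± 0.36, adjusted p = 0.452). The value was -1.48 ± 0.52 in BERKO mice alone and -1.06 ± 0.43 in WT mice alone, and it passed when no filter was applied (adjusted p = 0.0312). Dlgap1 (0.38 ± 0.14) and Dlgap2 (0.71 ± 0.25), both with an adjusted p of 0.619, were higher in the right biopsy of 9 and 10 of 11 mice. The letter code of the columns differs between the sides in each genotype, and the 2 cannot be told apart.

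**Figure D5:**
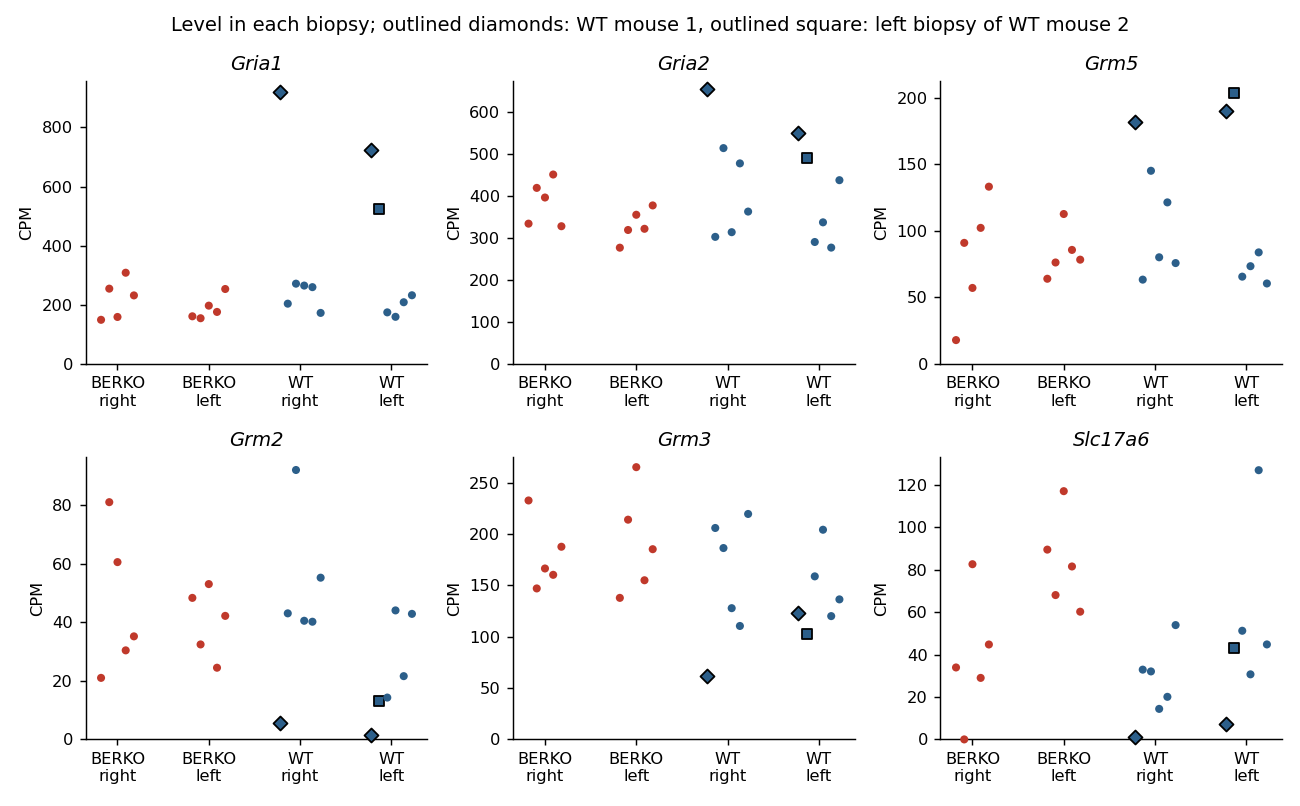
Level of 6 members in each of the 22 biopsies (y axis, CPM, starting at 0), with BERKO left of WT. Outlined diamonds are the biopsies of WT mouse 1 and the outlined square is the left biopsy of WT mouse 2. Gria1 and Grm5 were higher in these 3 biopsies than in the other 19, Grm2 was lower, and Slc17a6 was higher in left than right biopsies in 10 of 11 mice.

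The 3 biopsies that stood apart differed from the rest in several members. Gria1 had 919 and 724 CPM in the right and left biopsies of WT mouse 1 and 523 CPM in the left biopsy of WT mouse 2, against 149 to 308 CPM in the other 19. Grm5 had 182, 190 and 203 CPM, against 17.8 to 145 CPM. Grm2 had 5.73, 1.43 and 13.1 CPM, against 14.3 to 92.0 CPM. Gria1, Grm5 and Grm2, picked after their values were seen, were therefore not shifted in 1 direction in these biopsies. Without them 0 members passed by edgeR, against 6 of 8436 genes (0.0711%), and 6 of 29 had an unadjusted p under 0.05, against 670 genes (7.94%). In that fit the median log2 fold change of the tested members was 0.11, with 18 of 29 positive. The median of all genes in that fit is not given here, so these values have no background beside them.

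Other genes of glutamate signalling, from 5 lists, gave 0 calls at the adjusted threshold by edgeR. Of other glutamate receptors and transporters, 4 of 9 were tested and 4 were positive, 1 with an unadjusted p under 0.05 (background 9.92%). It was Slc1a2, the main astrocytic glutamate transporter (0.32 ± 0.14, adjusted p = 0.429), followed by Slc1a3 (0.18 ± 0.14) and Grid1 (0.07 ± 0.33). Of other auxiliary subunits, 9 of 16 were tested and 7 were positive, with a median of 0.27. The 3 with the smallest p were Cacng2, encoding stargazin (0.46 ± 0.25, adjusted p = 0.535), Gsg1l (1.44 ± 0.91) and Frrs1l (0.27 ± 0.20).

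Of 27 other postsynaptic scaffold and signalling genes, 24 were tested, 16 were positive and 3 had an unadjusted p under 0.05 (background 9.92%). Camk2a, the main postsynaptic protein kinase, ranged from 1442 to 2131 CPM in BERKO and from 925 to 1659.8 CPM in WT mice (0.55 ± 0.14, adjusted p = 0.179). Tanc2, a scaffold protein, was 0.54 ± 0.20 (adjusted p = 0.374), and Magi2, another scaffold protein, was -1.03 ± 0.39 (adjusted p = 0.387). Of 16 synaptic adhesion and organiser genes, 11 were tested and 3 were positive, with a median of -0.28. The 3 with the smallest p were Lrrtm2 (-0.70 ± 0.35), Nlgn3 (-0.46 ± 0.27) and Nlgn1 (-0.38 ± 0.24), with adjusted p of 0.515 to 0.593.

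Of 9 genes of glutamate synthesis and recycling, 8 were tested and 5 were positive, with a median of 0.06. Glul, the glutamine synthetase of astrocytes, ranged from 211 to 383 CPM in BERKO and from 168 to 303 CPM in WT mice (0.44 ± 0.17, adjusted p = 0.387). The glutamine transporter gene Slc38a1 was 0.34 ± 0.18 and the aminotransferase gene Got1 was -0.17 ± 0.14 (adjusted p = 0.526 and 0.696). The median log2 fold change of all genes tested was -0.01.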

How the data were processed

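Whole-number counts of reads per feature were deposited by the authors, with position, strand, symbol and class. The submitters' processing notes name mm9, Bowtie and TopHat2 2.0.12, and no source used here says how features were defined. The 3 lanes (1 for the left biopsy of BERKO mouse 5) were summed to 22 biopsies and biopsies to mice, the last digit of a column name being read as the mouse number. The labels tie right and left biopsies to 1 mouse, so the mouse was a block between sides and between classes (correlations of deviations -0.129 to 0.363, 5 of 11 highest with their own). Single-symbol features were summed per gene, with coding 5' UTR and upstream features as the promoter class. Counts are reads after PCR, so floors cover counting error only. Tests used edgeR 4.0.16 (robust quasi-likelihood, TMM, filterByExpr, two-sided, Benjamini-Hochberg at 0.05, R 4.3.3) over all genes, and standard errors are the log2 fold change over the square root of F. DESeq2 1.42.0 and limma 3.58.1 were alternatives. Members and lists were chosen with earlier results of these data known. Named value by value were the 12 members with the smallest p between genotypes, 3 members in each other test, 6 features and 3 genes per list. Gria1, Gria2, Grm5, Grm2 and Slc17a6, and the class values, were picked after their values were seen.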

Additional observations from a re-analysis of the deposited data

Results flagged for a closer look

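In 7 of 62 groups of mice, 1 mouse lay far from the rest of its group by Dixon's test, which flags about 1 in 20 groups by chance. Grin1 had 155 CPM in BERKO mouse 4, against 62.0 to 87.7 CPM in the other BERKO mice. WT mouse 1 held 4 of the 7 values. It had 859 CPM of Gria1, against 197 to 302 CPM in the other WT mice, and 622 CPM of Gria2, against 327 to 413 CPM. It also had 182 CPM of Grm5, against 70.0 to 109.7 CPM, and 55.5 CPM of Grik2, against 21.7 to 33.0 CPM. Both biopsies of that mouse stood apart from the other libraries. WT mouse 3 had 75.2 CPM of Grm7, against 16.8 to 38.1 CPM, and 133 CPM of Dlgap2, against 22.6 to 49.1 CPM.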

How the results depend on the processing

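Of 1150 alternative values of 72 results on single genes or features, 1132 kept their direction and their side of the threshold, 5 newly passed it and 13 changed sign; the causes were not tested. With no filter, the genes called numbered 14 for both sides summed, 9 for promoter reads, 21 for gene body reads (1 member, Grm7), 139 for features (1 member feature), 17 on the right, 22 on the left and 9 between sides (1 member, Slc17a6). For both sides summed, spike-in scaling called 45 genes and DESeq2 45, each with 1 member, Slc17a7, and limma-voom 2. Promoter reads gave 2 calls with RLE scaling, 3 when the 3 WT libraries standing apart were left out and 3 with the scaling of all gene reads, which gave 0 for gene body reads and was chosen after seeing the data.

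Replicate numbers did not pair the genotypes (correlations -0.033 to 0.055, 2 of 5 highest with their own). With the replicate block 9 genes were called for both sides summed, 16 features, and 1 gene on the right, and without the mouse block 1 gene for gene body against promoter. On the left the block turned Homer1 to 0.11 and Gria4 to -0.15, and Gria4 was -0.16 without the 3 libraries. Dlgap1 promoter reads were -0.00077 with the scaling of all gene reads.

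Leaving out 1 mouse gave 1 to 18 calls for both sides summed, 1 to 6 for promoter and 0 to 1 for gene body reads, 8 to 48 for features (48 without WT mouse 4, with 0 to 1 member feature), 0 to 6 on the right, 0 to 1 on the left, 0 to 3 between sides, and 0 for the other tests. Log2 fold changes that changed sign ran from -0.0080 to 0.17 (Dlgap1, promoter), -0.48 to 0.0092 (Grm7, promoter), -0.22 to 0.73 (Homer2, gene body), -0.15 to 0.43 (Homer1, gene body), -0.068 to 0.38 (Grin1, gene body) and -0.14 to 0.30 (Gria4, left). At 0 reads in every mouse, Grin2c could not be compared at this depth.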
